A study of Mus musculus with 19 samples.

Results

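Both transgenes together can act on a gene as the product of their separate effects, or can depart from it, and that departure is what was measured here in mouse tongue epithelium. All 19 of the 19 bulk RNA samples of the series take part, 1 mouse each, in the groups N (5 mice), E (5), Y (3) and EY (6). For each gene the contrast EY - E - Y + N was taken on log2 TPM (reads per gene length, scaled to the same total in every mouse), here called the interaction. It is 0 where EY equals the product of the single fold changes, below 0 where EY lies under that product, and above 0 where EY lies over it. The test took in 22745 genes, those that reached 0.1 TPM in 3 or more mice, and left out 1944.

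E mice carried Krt14-CreERT, LSL-rtTA and tetON_E6-E7, Y mice carried Krt14-CreERT, LSL-rtTA and tetON_YAP1S127A, and EY mice carried all 4 of these alleles. In each, a Cre that tamoxifen activates under the Krt14 promoter opens rtTA in basal epithelial cells, and rtTA with doxycycline turns on the tetON genes. By the study's methods the lines also hold a tetON H2B-GFP reporter, and the mice were littermates given tamoxifen in the tongue and a doxycycline diet; the epithelium was peeled off the muscle on day 15 after induction. The N group is mixed. In 3 of its mice the genotype was Krt14-CreERT/LSL-rtTA, 1 had LSL-rtTA without Cre, and 1 had Krt14-CreERT with both tetON genes but no rtTA. Reads recovered from the TPM steps, which could be too low for a gene whose reads share a divisor, summed to 8269674 in the mouse of least depth (Y1) and 11007304 in that of most (EY2). Xist, the RNA of the inactive X chromosome, was above 222 TPM in 5 mice (2 N, 0 E, 2 Y and 1 EY) and at most 0.175 TPM in the other 14, so sex differed in share between the groups.

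As background, E6 and E7 are papillomavirus oncoproteins: E6 removes p53, and E7 binds the retinoblastoma family and so frees E2F factors, which switch on genes of S phase. YAP is the transcriptional coactivator that the Hippo kinases hold in the cytoplasm, and the S127A form escapes that hold and acts with TEAD factors. In the dorsal tongue, basal keratinocytes divide, and their daughters move up, stop dividing and build a cornified envelope; those of the filiform papillae also make hair-type keratins. The mouse Yap1 gene did not mark the transgene: Yap1 was at 7.88, 10.2, 8.46, 7.48 and 7.7 TPM among N mice, 9.08, 8.59, 9.57, 10.6 and 8.93 among E mice, 9.65, 6.62 and 9.45 among Y mice and 7.99 to 10.7 TPM with a median of 9.07 among EY mice. Those ranges overlapped in all groups. Cdkn2a, whose product p16 is known to rise where the retinoblastoma protein is disabled, was at 0.169, 0, 0.0317, 0 and 0.0275 TPM among N mice, 0.434, 0.225, 0.817, 0.762 and 0.249 among E mice, 0.143, 0 and 0.0324 among Y mice and 0.0978 to 1.18 TPM with a median of 0.455 among EY mice. Every E mouse was above every N and Y mouse for Cdkn2a, and 2 of the 6 EY mice were below the highest N value.

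The 13 called Lce1 genes, of the last steps of cornification, lay far lower in EY than the product of the single changes: they fell by between 5.47 and 6.43 on the log2 scale in EY, beside changes of -1.82 to -1.43 in Y and 0.05 to 0.53 in E. The 25 mitosis genes of a list rose in EY and lay under the product by their fitted means, 1 of them called. In 20 of 25 DNA replication genes the 95% confidence interval of the departure lay within a factor of 2. Gene lists here and below were chosen with earlier results of these data known, so their counts beside those of all genes are descriptive. Fkbp11 and Nudt19 stood above the product. With limma and Benjamini-Hochberg adjustment over all genes tested, 40 genes (0.176%) passed an adjusted p under 0.01 with an absolute interaction over 1. Of these, 38 (0.167%) lay below 0 and 2 (0.00879%) above 0. At an unadjusted p under 0.05 the sides were more even, with 1374 genes (6.04%) below 0 and 1698 (7.47%) above. Whatever the p, 10117 genes lay below 0 and 12628 above. The fold changes that enter the contrast were unequal in number: 4157 genes (18.3%) passed the same thresholds in EY against N, 2858 (12.6%) up and 1299 (5.71%) down, 1042 (4.58%) in Y and 274 (1.20%) in E. The median interaction of all genes was 0.08, and 0.02 after median-of-ratios scaling, which divides a mouse by its typical ratio to the other mice. Intervals were taken gene by gene, without adjustment for the number of genes. For 7736 genes (34.0%) the 95% confidence interval of the interaction lay wholly between -1 and 1, that is, within a factor of 2. Among the 4157 genes that changed in EY this held for 1326 (31.9%); for the other 2831, which hold 38 of the 40 called genes, the interval reached past a factor of 2. This count of genes additive within a factor of 2 was 872 with median-of-ratios scaling, 863 with quantile normalization and 849 with voom. The number of genes called in EY can change with the alternative, so these counts are not shares of the 4157.

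The 40 genes fall into 3 kinds. In 36 both the interaction and the EY change were below 0, so that EY lay deeper than the product; in 2, Kifc1 and Cdc20, EY was above N but under the product; in 2, Fkbp11 and Nudt19, EY lay above N and above the product. Of the 38 below 0, 30 had E above N and Y below N by the fitted means. The contrast subtracts both single changes, so a call below 0 favours single changes above 0. The E side of this count is therefore no separate result, and the share of all genes with these signs was not counted. Of the 38, only Kifc1 and Cdc20 passed the thresholds in E against N. Without each mouse in turn, 23 of the 40 were called every time, and 22 were called under all alternatives run, among them all 13 Lce1 genes. Leaving out EY3 gave 73 genes, 39 of them among the 40; leaving out any other mouse gave between 28 and 47. In the fit with Xist as a covariate 34 genes passed, all of them among the 40, and with the 3 N mice of the plain genotype 30 passed, 26 of them among the 40.

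**Figure D1:**
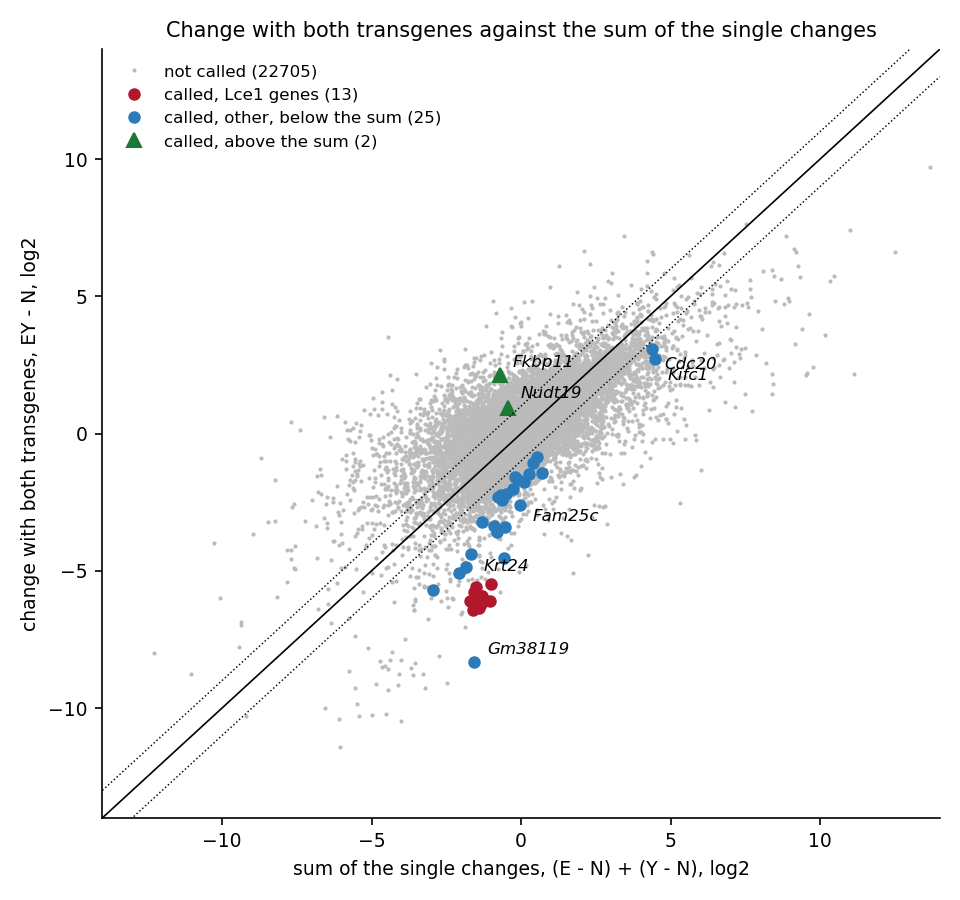
Each point is 1 of the 22745 genes, with the sum of its E and Y log2 changes against N on the x axis and its log2 change in EY on the y axis; all changes share the N mice. The solid line is an interaction of 0 and the dotted lines are -1 and 1. The 13 Lce1 genes (red) form a group far under the line, 25 other genes (blue) lie under it, and Fkbp11 and Nudt19 (green) lie above it.

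Among called genes with reads in every group, the 13 lowest interactions were those of Lce1 genes, which encode late cornified envelope proteins that are crosslinked at the surface of the uppermost keratinocytes. They lie in the epidermal differentiation complex. Of 14 Lce1 genes tested, 13 were called, beside 0.176% of all genes, with interactions from -5.07 to -4.10. The start regions of Lce1i and Lce1c, 2 of the genes of smallest p, and of Lce1m, the one that was not called, are shown from 100 bases before to 50 after the start, as RefSeq gives them on GRCm38.p6, at chr3:92778850-92778999 (minus strand), chr3:92679147-92679296 (plus strand) and chr3:93019012-93019161 (minus strand). Capitals mark ATAAAAG, chosen after the sequences were seen.
Lce1i: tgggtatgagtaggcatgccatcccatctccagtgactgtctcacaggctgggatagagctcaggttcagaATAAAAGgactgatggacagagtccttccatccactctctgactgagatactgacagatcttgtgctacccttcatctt
Lce1c: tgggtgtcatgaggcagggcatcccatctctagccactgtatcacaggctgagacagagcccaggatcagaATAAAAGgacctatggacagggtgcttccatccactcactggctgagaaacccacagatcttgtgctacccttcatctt
Lce1m: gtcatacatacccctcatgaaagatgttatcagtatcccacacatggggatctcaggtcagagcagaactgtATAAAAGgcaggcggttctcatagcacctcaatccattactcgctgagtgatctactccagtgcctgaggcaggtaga
The stretch begins at -29 in Lce1i and Lce1c and at -28 in Lce1m, with the start counted as 0. The 13 Lce1 genes with a promoter entry are not the 13 called ones, since they hold Lce1m and lack Lce1f. On either strand of the 300-base windows (250 before to 50 after the start), 10 of the 13 with an entry held the stretch, as did 17 of 26 Krtap genes, against 5.42% of 32851 promoter entries. It can overlap with the TATA box letters TATAAA, which 2 of the 13 Lce1 genes, 23 of the 26 Krtap genes and 13.6% of all entries held. GGAATG, the core that TEAD factors bind, was in 4 of the 13 Lce1 windows and 14.7% of all entries, and TGANTCA, the AP-1 letters, in 0 of the 13 and 9.30% of all. A match says nothing of binding, and Lce1m holds the stretch too.

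Lce1i was at 1421, 1028, 974, 1539 and 1879 TPM among N mice, 1970.2, 1493, 1489.9, 1771 and 1290.00 among E mice, 302, 555 and 436 among Y mice and 7.95 to 22.2 TPM with a median of 17.6 among EY mice. N and E overlapped, every Y mouse was lower than both, and every EY mouse was lower than every Y mouse by more than 10 times. The product of the single changes puts EY at 499 TPM and the plain sum of the mean levels, E + Y - N, at 665 TPM. Its interaction was -4.93 (SE 0.39, adjusted p = 5.16e-06). Lce1c stood at 1552, 819, 768, 1589.9 and 1725 TPM among N mice, 1627, 1491, 1332, 1289.6 and 1329.8 among E mice, 297, 465 and 299.8 among Y mice and 10.04 to 26.6 TPM with a median of 16.7 among EY mice, with an interaction of -4.60 (SE 0.40, adjusted p = 1.36e-05). Lce1b showed the same order, with 1477, 980.3, 1062, 1725 and 2014 TPM among N mice, 1856, 1697, 1558, 1504 and 1451.03 among E mice, 304, 513 and 402 among Y mice and 8.77 to 28.9 TPM with a median of 15.8 among EY mice. In all 13 called Lce1 genes every EY mouse lay under every other mouse, in the same values that gave the calls. On the log2 scale their changes ran from 0.05 to 0.53 for E, from -1.82 to -1.43 for Y and from -6.43 to -5.47 for EY, and adjusted p was at most 8.23e-04. The Lce1 genes are near copies, so reads may have been shared among them, and each single value is uncertain to that extent. In bulk epithelium, fewer cells of the uppermost layers and less Lce1 RNA per cell cannot be told apart.

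Lce1m was the exception, at 26.2 ± 12.8 TPM across N (mean ± SD over 5 mice) and 4.4 ± 2.27 across EY (6 mice), with an interaction of -0.97 (SE 0.80) that did not pass the thresholds. Gm38119, known only by its predicted-gene symbol, had the smallest p of all genes. It stood at 46.9, 13.8, 19, 45.3 and 60.6 TPM among N mice, 36.4, 41.2, 26.5, 17.1 and 20.4 among E mice and 12.5, 11.9 and 14.5 among Y mice, and was at 0 reads in all 6 EY mice. With each EY mouse set to the TPM of 3 reads the interaction is -2.94 log2 or lower, counting error only; the fitted value depends on the pseudocount and ran from -10.08 to -3.54 over the alternatives.

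The neighbours of the Lce1 genes were read in the order of the RefSeq table of GRCm38.p6, which puts them on chromosome 3. From the first to the last Lce1 gene it lists 23 protein-coding genes. All 23 were tested and 15 were called, beside 0.176% of all genes. Besides the 13 Lce1 genes these are Kprp, a keratinocyte proline-rich protein, and 2310050C09Rik. The 6 Lce3 genes inside the stretch had interactions of -2.66 to -2.07 and none was called. Each had an unadjusted p under 0.05, beside 6.04% of all genes below 0 at that p. Their median changes were 0.49 in E, 0.03 in Y and -1.77 in EY. Of the 12 protein-coding genes on either side, 21 were tested and 0 were called by limma; among them are Lce6a and Sprr genes on one side and Crnn, Flg, Hrnr, Rptn and Tchh on the other. Lce6a, directly beside Lce1a1, had an interaction of -5.45 (SE 1.53, adjusted p = 0.107), lower than that of any Lce1 gene, at 0 to 23 reads a mouse. 2310050C09Rik was at 819, 694, 470.2, 1122 and 1087 TPM among N mice, 1326, 873, 1039, 1355 and 995 among E mice, 294, 440.2 and 457 among Y mice and 21.1 to 63.3 TPM with a median of 34.8 among EY mice. E overlapped with N at the upper end, Y lay under both, and the highest EY mouse was far under the lowest Y mouse; the interaction was -3.97 (SE 0.43, adjusted p = 9.97e-05). Kprp had mean levels of 590.2 ± 107 TPM among N mice, 733 ± 159 among E mice, 275 ± 55.3 among Y mice and 53 ± 21.3 among EY mice, with an interaction of -2.78 (SE 0.41, adjusted p = 2.68e-03); without Y1, or with only the 3 N mice of the plain genotype, it was not called.

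**Figure D2:**
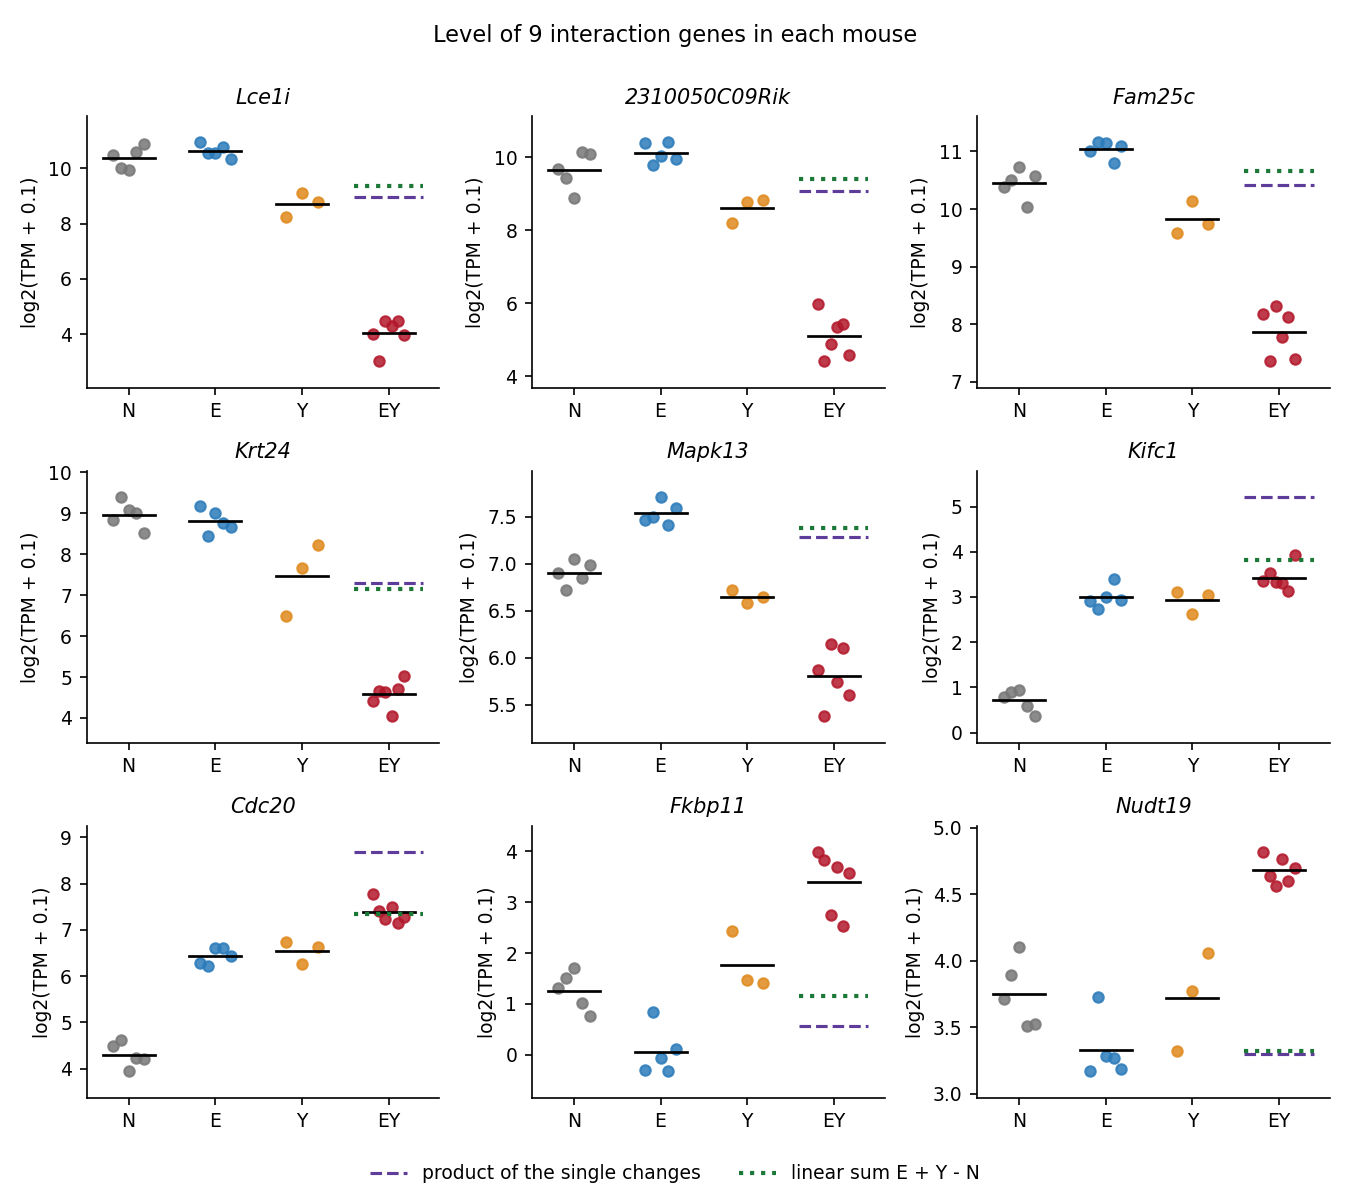
Each point is 1 mouse, on an axis of log2(TPM + 0.1), with black bars at the group means, for 9 called genes. Dashed lines give the EY level that the product of the single changes predicts, and dotted lines the plain sum E + Y - N of mean TPM. The EY mean lies under both lines for the first 6 genes (Lce1i, 2310050C09Rik, Fam25c, Krt24, Mapk13 and Kifc1) and over both for Fkbp11 and Nudt19; for Cdc20 it lies under the product and near the sum.

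Fam25c, a small gene of unknown function, was at 1327, 1456, 1706, 1049 and 1530.2 TPM among N mice, 2054, 2283, 2253, 1779 and 2173 among E mice, 763, 1129 and 857 among Y mice and 164 to 319 TPM with a median of 249 among EY mice. All EY mice were lowest, and all 5 E mice were above every N mouse. The interaction was -2.55 (SE 0.28, adjusted p = 1.22e-04). Krt24, a keratin of differentiated keratinocytes, was at 456, 670.2, 543, 513 and 368 TPM among N mice, 578, 351, 510.3, 437 and 404 among E mice, 90.3, 204 and 297 among Y mice and 16.3 to 32.7 TPM with a median of 24.8 among EY mice. Its Y mice spread widely, and every EY mouse was lower than all of them; the interaction was -2.72 (SE 0.39, adjusted p = 2.08e-03). It was not called with only the 3 N mice of the plain genotype or with the replicate block. Acer1, the alkaline ceramidase that breaks down ceramides in differentiating epidermis, was at 20.8, 22.4, 24, 30.03 and 23.7 TPM among N mice, 22.8, 17.7, 20.6, 22 and 22.7 among E mice, 13.4, 9.01 and 10.9 among Y mice and 2.02 to 3.97 TPM with a median of 2.15 among EY mice. N and E overlapped, Y was lower, and all EY mice were lower still, with an interaction of -1.90 (SE 0.27, adjusted p = 1.67e-03); without Y1 it was not called.

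Several called genes outside the lists had smaller interactions. Mapk13, the p38 delta kinase, which is active in differentiating keratinocytes, was at 119, 105, 132, 115 and 126 TPM among N mice, 177, 181, 209, 169.7 and 193 among E mice, 106, 95.8 and 100.02 among Y mice and 41.5 to 70.8 TPM with a median of 56 among EY mice. Every E mouse was above every N mouse, and every EY mouse was under every other mouse. The interaction was -1.48 (SE 0.18, adjusted p = 4.87e-04), the product puts EY at 156 TPM and the plain sum at 166. Gpsm1, a modulator of G protein signalling, was at 13, 11.9, 12.4, 10.9 and 15.7 TPM among N mice, 20.9, 16.4, 25.9, 20.8 and 20.3 among E mice, 13.3, 12.4 and 12.4 among Y mice and 3.01 to 6.88 TPM with a median of 4.45 among EY mice. Y matched N, E was higher, and EY fell below all, with an interaction of -2.13 (SE 0.27, adjusted p = 7.08e-04). Calcoco1, a coiled-coil protein linked to selective autophagy, stood at 27.4, 31.5, 31.5, 24.5 and 27.9 TPM among N mice, 38.7, 31.5, 41.2, 31.9 and 34.3 among E mice, 21.6, 18.1 and 20.5 among Y mice and 7.73 to 11.7 TPM with a median of 9.16 among EY mice, with an interaction of -1.38 (SE 0.18, adjusted p = 9.91e-04). Its EY mice were all under the lowest Y mouse.

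Gm2a, the activator protein of ganglioside breakdown in lysosomes, was at 141, 99.8, 86, 154 and 159 TPM among N mice, 162, 175, 175, 146 and 170.01 among E mice, 79.9, 72 and 81.1 among Y mice and 22.5 to 34.3 TPM with a median of 32 among EY mice. The EY mice were lowest without overlap, and the interaction was -1.75 (SE 0.23, adjusted p = 1.04e-03). Sytl1, a Rab27 effector of vesicle transport, was at 110.5, 122, 137, 123 and 138 TPM among N mice, 122, 95.9, 136, 107 and 108 among E mice, 86, 72.2 and 87.2 among Y mice and 18.8 to 36.6 TPM with a median of 24.6 among EY mice. E did not lie above N here, and the interaction was -1.54 (SE 0.21, adjusted p = 1.12e-03). Natd1 was at 17.6, 14.8, 14.3, 13.6 and 16.8 TPM among N mice, 25.8, 25.6, 29.96, 18.2 and 17 among E mice, 11, 10.3 and 11.6 among Y mice and 3.08 to 6.03 TPM with a median of 4.51 among EY mice, with an interaction of -1.86 (SE 0.26, adjusted p = 1.43e-03). Of the 5 E mice 4 were above every N mouse, and all EY mice were lowest.

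The remaining genes called below 0 with EY under N were Lrrc20 (-1.76), Tmem229b (-2.85), Xkrx (-2.46), Otub2 (-1.59), Serpina12 (-3.01), Gm11992 (-1.57), Cpa4 (-1.75), Fetub (-3.01), Ly6g6c (-1.70), Ahsg (-2.77) and Prss8 (-1.38), each value an interaction. They include Prss8, a membrane-bound serine protease needed for the skin barrier, Otub2, a deubiquitinase, Serpina12, a serpin also named vaspin, and the fetuins Fetub and Ahsg. Serpina12 went from 24 ± 3.93 TPM among N mice and 19.4 ± 5.45 among E mice to 7.14 ± 0.629 among Y mice and 0.698 ± 0.448 among EY mice. Fetub went from 268 ± 52.8 TPM among N mice and 282 ± 78.1 among E mice to 72.9 ± 17.9 among Y mice and 10.3 ± 5.46 among EY mice. Prss8 stood higher in E, at 149 ± 12.6 TPM against 102 ± 15.9 among N mice, about level in Y at 99.2 ± 9.99, and at 57.2 ± 13.9 among EY mice. Of the 23 genes called outside the Lce1 family with EY under N, 22 had every EY mouse under every other mouse. The calls were made on these same values, so the count describes the called genes and adds no support. Many of these calls depended on single mice: of the 19 fits that leave out 1 mouse, Xkrx, Otub2, Serpina12 and Gm11992 were called in 11 each, Cpa4 in 8, Prss8 in 1 (without EY5), Ahsg in 3, and Fetub and Ly6g6c in 6 each. Lrrc20 was not called without Y1, nor Tmem229b without Y2 or Y3. With only the 3 N mice of the plain genotype Xkrx alone of these 11 was called, and with the replicate block none of them was. Ahsg, at 2 to 5 reads in each EY mouse, ran from -3.34 to -1.2 over the alternatives. It was also not called with voom, a pseudocount of 1 TPM or median-of-ratios scaling.

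Of 17 genes of the cornified envelope and filaggrin type, 1 was called (Kprp), 11 had an unadjusted p under 0.05, all below 0. Over all genes 6.04% were below 0 at that p and 7.47% above. The median interaction was -1.44 against 0.08 over all genes. Lor, which encodes loricrin, the main envelope protein, was at 5749.8 ± 2017 TPM among N mice, 6749.8 ± 3566 among E mice, 3113 ± 1701 among Y mice and 469.5 ± 285 among EY mice; its interaction of -2.91 (SE 0.64, adjusted p = 0.0432) was not called. Of 17 barrier lipid genes 12 were below 0 at an unadjusted p under 0.05 and 0 above, against the same shares, with a median of -0.85; Acer1 was the 1 called. For the 12 kallikreins and related proteases of desquamation the counts were 10 and 0, with a median of -1.12 and 0 called by limma. Klk7, which cuts the links between surface cells, had 179 ± 34.7 TPM among N mice and 57.9 ± 32.1 among EY mice, with changes of 0.45 in E and -0.07 in Y. In Klk6 the interaction of -2.48 was below 0 while EY was above N by 4.62 and Y by 5.92.

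The Sprr genes, small proline-rich envelope proteins that injury raises, had median changes of 2.93 in Y and 2.85 in EY over 16 genes, of which 10 rose in EY by limma, beside 12.6% of all genes. Sprr3, the most abundant, had -0.17 in EY and Sprr2b -1.59. Their median interaction was -1.30, 14 of 16 were below 0, 2 at an unadjusted p under 0.05, and 0 were called by limma. At that p 6.04% of all genes were below 0. Filiform papilla genes had large values and large errors. Of 29 Krtap genes, which encode the matrix proteins of hair-type keratin, 22 were below 0, each at an unadjusted p under 0.05, and 7 above, 0 of them at that p, with median changes of -0.97 in E, -2.95 in Y and -7.96 in EY and a median interaction of -3.71. The median SE was 1.46, 0 passed the thresholds in limma, and 8 of them were at 0 in every mouse of at least 1 group. Setting such groups to the TPM of 3 reads left the median at -3.71. All 7 genes above 0 were among these 8, at 0 reads in every EY mouse. A level at 0 cannot fall further, so their side says nothing of a departure. Against the plain sum of mean levels the side turned for 15: 22 of the 29 EY levels lay above it, 15 of them between the sum and the product. In Krtap1-3, Krtap1-4 and Krtap9-1, among others, that sum lies below 0. No EY level can be under such a sum, so the turn says nothing of these genes. The 13 hair-type keratins gave 11 below 0 and 0 above at an unadjusted p under 0.05, with a median of -3.11. Krt76, a keratin of the oral mucosa, was at 3682 ± 1112 TPM among N mice, 3049.5 ± 789 among E mice, 722 ± 417 among Y mice and 98.6 ± 67.9 among EY mice, with an interaction of -2.72 (adjusted p = 0.0796).

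Transcription factors and adhesion genes of the upper layers had smaller medians. Of 8 papilla factors, 4 were below 0 and 1 above at an unadjusted p under 0.05, beside 6.04% of all genes below 0 and 7.47% above. Hoxc13, a factor of hair keratin genes, had 0.06 in E, -1.48 in Y, -3.08 in EY and an interaction of -1.66. Of 14 squamous differentiation factors 12 were below 0, 5 of them at an unadjusted p under 0.05, and 2 above, 0 of them at that p, with a median of -0.54. Among 16 desmosome and corneodesmosome genes 13 were below 0, 6 of them at an unadjusted p under 0.05, and 3 above, 1 of them at that p. Dsg1a, a desmoglein of the upper layers, was at 372 ± 77.8 TPM among N mice and 32.5 ± 8.46 among EY mice with an interaction of -1.61 (SE 0.30, adjusted p = 0.0183), and Pkp2, a plakophilin, had an interaction of 1.71 with EY above N by 3.37. The 15 genes of basal progenitor identity had 1 on each side at an unadjusted p under 0.05, near the shares of all genes, a median of 0.12, and 8 intervals within -1 and 1, where all genes had 34.0%. In none of these lists did limma call a gene.

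**Figure D3:**
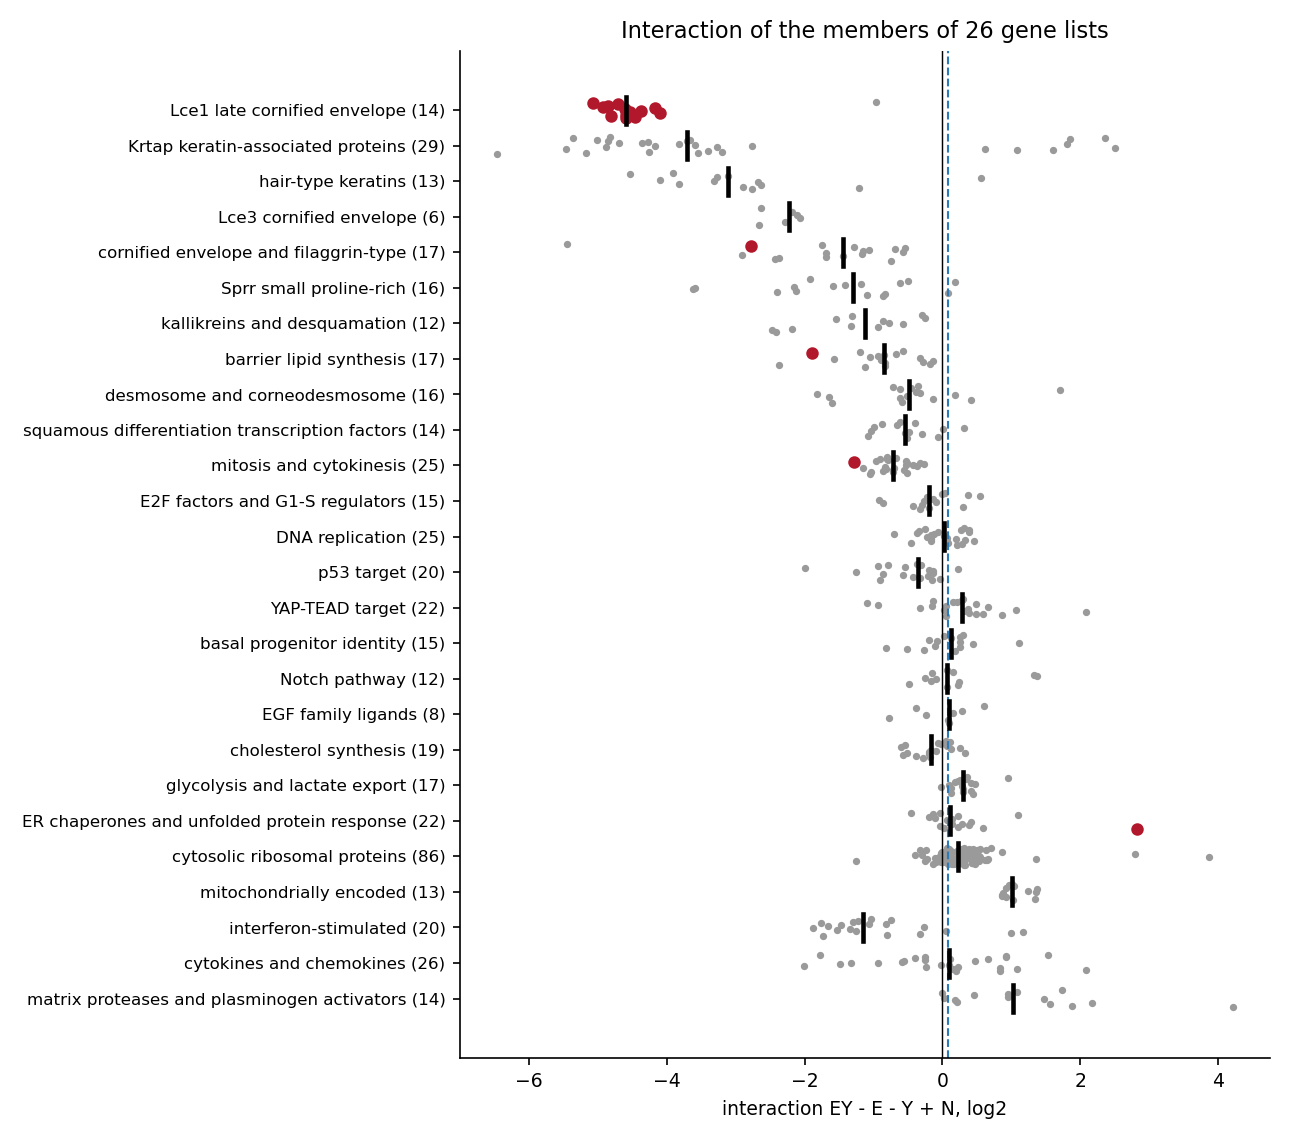
Each point is the interaction of 1 gene, in log2 units, for 26 gene lists with the number tested in brackets; red points are called genes, thick bars list medians, and the dashed line is the median of all genes, 0.08. The lists of differentiation and papilla genes lie left of 0, down to -4.60 for the Lce1 median, DNA replication centres on 0.03, mitosis on -0.72 and the mitochondrially encoded genes on 1.01.

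Cell cycle genes were described as a replication list and a mitosis list. Of 25 DNA replication genes 24 rose in EY by limma, beside 12.6% of all genes, all but Gins2 (-0.34 in Y and 0.02 in EY). The median changes were 1.06 in E, 0.82 in Y and 1.93 in EY, and the median interaction was 0.03. In 20 of the 25 the 95% interval lay within -1 and 1, against 34.0% of all genes, and 0 had an unadjusted p under 0.05 or a call in limma. Mitosis and cytokinesis genes had medians of 1.77 in E, 1.87 in Y and 2.91 in EY, and all 25 were called up in EY. All 25 had an interaction below 0, 20 of them at an unadjusted p under 0.05 against 6.04% of all genes. The list was chosen with earlier results known and its genes were measured in the same mice, so these are not independent counts. The median interaction was -0.72. It was -0.79 after median-of-ratios scaling and after quantile normalization, where replication stood at -0.03 and -0.04. Cdc20 was the 1 called. The difference between the lists was not tested.

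Kifc1, a minus-end kinesin that clusters centrosomes on the spindle, was at 1.63, 1.76, 1.83, 1.41 and 1.18 TPM among N mice, 7.45, 6.52, 7.96, 10.5 and 7.52 among E mice, 8.51, 6.05 and 8.18 among Y mice and 8.64 to 15 TPM with a median of 10.1 among EY mice. Every E, Y and EY mouse was above every N mouse, and EY overlapped only with the top of E. The product puts EY at 36.8 TPM, and the interaction was -1.78 (SE 0.25, adjusted p = 1.67e-03); without Y1, or with the muscle marker level as a covariate, it was not called. Cdc20, the activator of the anaphase-promoting complex, was at 22.4, 24.5, 15.2, 18.6 and 18.4 TPM among N mice, 78, 73.9, 96.7, 96.9 and 86.2 among E mice, 107, 76.8 and 99.5 among Y mice and 142 to 220.2 TPM with a median of 163 among EY mice. All EY mice were above all E and Y mice, yet under the product of 409 TPM, and the interaction was -1.29 (SE 0.21, adjusted p = 7.93e-03). It was called in 5 of the 19 fits that leave out 1 mouse, and not with the muscle or Xist covariate, with only the 3 N mice of the plain genotype or with the replicate block. Against the plain sum of mean levels, Cdc20 in EY differed by 8.59 TPM (SE 15.6) from 161, while Kifc1 was under the sum as well, by -3.17 TPM (SE 1.37) from 14. All 25 mitosis genes of the list, which does not hold Kifc1, lay between the plain sum and the product. Here the mean EY TPM is set against the sum and the mean of log2 values against the product. Of the 25 replication genes 23 lay above the plain sum and 13 above the product. The mean EY level was over the plain sum by more than 2 SE in 14 of the mitosis genes and in 13 of the replication genes. The others cannot be told from the sum at that margin.

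The start regions of Kifc1, Cdc20 and Mcm3 show the letters by which such promoters are usually told apart, again from RefSeq on GRCm38.p6 and from 100 bases before to 50 after the start, at chr17:33890584-33890733 (minus strand), chr4:118437294-118437443 (minus strand) and chr1:20820263-20820412 (minus strand). Capitals mark TTTGAA (the cell cycle genes homology region) and CCAAT (bound by NF-Y) in Kifc1 and Cdc20, and TTCCCGC (E2F) and CCAAT in Mcm3, on either strand.
Kifc1: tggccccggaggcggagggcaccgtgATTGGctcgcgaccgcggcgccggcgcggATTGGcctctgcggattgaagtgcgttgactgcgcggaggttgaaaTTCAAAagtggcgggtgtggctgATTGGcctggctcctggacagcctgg
Cdc20: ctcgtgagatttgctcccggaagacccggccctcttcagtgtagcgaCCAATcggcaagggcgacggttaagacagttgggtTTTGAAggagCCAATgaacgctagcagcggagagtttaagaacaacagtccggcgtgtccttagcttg
Mcm3: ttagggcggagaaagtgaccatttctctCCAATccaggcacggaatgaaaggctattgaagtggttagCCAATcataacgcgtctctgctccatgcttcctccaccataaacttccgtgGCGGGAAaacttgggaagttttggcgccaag
In the 300-base windows TTTGAA was in 16 of 22 mitosis genes with an entry, 4 of 19 replication genes and 17.9% of all entries. TTCCCGC was in 0 of 22 mitosis genes, 9 of 19 replication genes and 4.60% of all entries, and CCAAT in 18 of 22, 13 of 19 and 37.4%. Mcm3, a subunit of the replicative helicase, was at 8.51 ± 1.71 TPM among N mice, 19.2 ± 4.32 among E mice, 15.9 ± 3.64 among Y mice and 43.9 ± 11.2 among EY mice, with an interaction of 0.29 (95% interval -0.36 to 0.94). Matches describe the windows and say nothing of which factor acted.

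**Figure D4:**
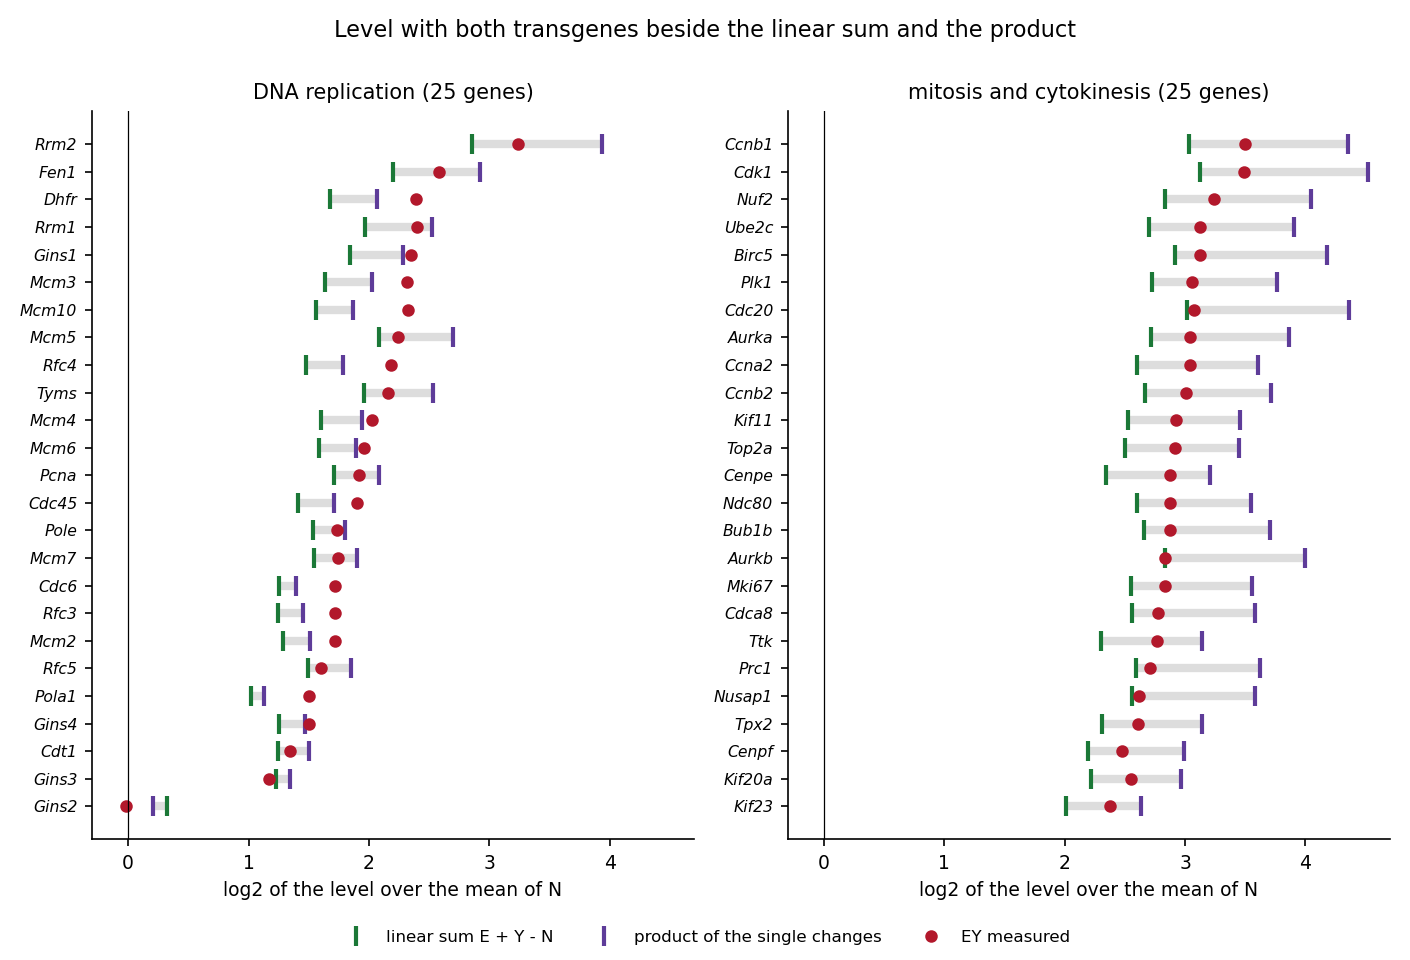
For each of 25 replication and 25 mitosis genes, the EY level (red, mean of log2 values) is set beside the plain sum E + Y - N of mean TPM (green) and the product of the single changes (violet), all as log2 of the level over the N mean. Mitosis genes lie between both marks, while 13 of the 25 replication genes lie above the product. By mean TPM, 14 of the 25 mitosis genes are over the sum by more than 2 SE.

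The E2F and G1-S regulators, 15 genes, lay between these lists, with a median interaction of -0.19, 2 below 0 at an unadjusted p under 0.05 beside 6.04% of all genes, and 9 intervals within -1 and 1 beside 34.0%. Of 20 p53 target genes 19 were below 0, 7 at an unadjusted p under 0.05, and 0 were called by limma, with a median of -0.35. Btg2, an antiproliferative p53 target, was level in the single groups and low in EY: 463 ± 193 TPM among N mice, 544 ± 323 among E mice, 495 ± 189 among Y mice and 127 ± 30.1 among EY mice, with an interaction of -2.0 (SE 0.58, adjusted p = 0.122). Trp53inp1, a stress protein that p53 induces, did likewise, with 24.4 ± 6.79, 24.8 ± 2.6, 24 ± 3.9 and 10.7 ± 2.91 TPM and an interaction of -1.26 (SE 0.31, adjusted p = 0.0616); neither was called. Of 22 YAP-TEAD targets 12 were called up in EY, beside 12.6% of all genes. At an unadjusted p under 0.05, 1 had an interaction below 0 and 3 above 0, beside 6.04% and 7.47% of all genes, and 9 intervals lay within -1 and 1, beside 34.0%. Amotl2, a Hippo feedback gene, gave 1.75 in Y and 2.06 in EY with an interaction of 0.49, and Ccn2, a matricellular protein, gave 0.79, 1.97 and 2.08 (adjusted p = 0.274).

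Above the product 2 genes were called. Fkbp11, a prolyl isomerase of the endoplasmic reticulum, was at 2.38, 2.75, 3.17, 1.93 and 1.59 TPM among N mice, 0.715, 1.69, 0.86, 0.698 and 0.982 among E mice, 5.27, 2.65 and 2.56 among Y mice and 5.67 to 15.7 TPM with a median of 12.2 among EY mice. E was lower than N but for 1 mouse, Y overlapped with the upper N mice, and all EY mice were above all others. The product puts EY at 1.37 TPM, and the interaction was 2.83 (SE 0.47, adjusted p = 8.34e-03). It was called in 5 of the 19 fits without 1 mouse, and its adjusted p reached 0.0432 over the alternatives. With only the 3 N mice of the plain genotype, the Xist covariate, voom, a pseudocount of 1 TPM or the replicate block it was not called. The other 21 genes of the list of endoplasmic reticulum chaperones and stress genes were not called, and the list's median was 0.11. Of its 22 genes, Fkbp11 included, 3 were above 0 and 0 below at an unadjusted p under 0.05, beside 7.47% and 6.04% of all genes. In all 17 of 22 intervals lay within -1 and 1, beside 34.0% of all genes. Nudt19, a peroxisomal hydrolase of coenzyme A, was at 13, 14.7, 17, 11.3 and 11.4 TPM among N mice, 8.89, 13.1, 9.62, 9.53 and 9.01 among E mice, 9.88, 13.6 and 16.5 among Y mice and 23.5 to 28 TPM with a median of 25.3 among EY mice. All EY mice were above all others, while neither single group was above N, and the interaction was 1.38 (SE 0.22, adjusted p = 4.54e-03). It was called in 11 of the 19 fits without 1 mouse, and not with the muscle covariate or the replicate block.

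Of the 15 genes of smallest p above 0, 13 were not called. Gdi2, a recycling factor of Rab GTPases, was at 61.5 ± 4.34 TPM among N mice, 53.5 ± 3.18 among E mice, 63.3 ± 3.27 among Y mice and 85.8 ± 3.41 among EY mice, with an interaction of 0.64 (SE 0.09, adjusted p = 2.68e-03), under the limit of 1. Hsp90aa1, the inducible cytosolic HSP90, was at 146, 201, 159, 123 and 150.4 TPM among N mice, 87.7, 175, 148, 164 and 159 among E mice, 318, 395 and 421 among Y mice and 780.3 to 1158 TPM with a median of 917 among EY mice. It was higher in Y than in N or E and higher again in every EY mouse, with an interaction of 1.40 (SE 0.27, adjusted p = 0.0187). Ribosome assembly factors were among the 15: Wdr12 had an interaction of 0.95 (SE 0.15, adjusted p = 5.98e-03), Ddx52 of 0.88 (SE 0.15, adjusted p = 0.0105) and Rsl1d1 of 0.74 (SE 0.15, adjusted p = 0.023). Anapc4 (0.83), Rwdd1 (0.68), Gtf2h1 (0.90) and Ankrd49 (0.58) were also below 1. Neto2 had an interaction of 1.89, with Y low, at 0.749 ± 0.127 TPM against 3.03 ± 1.27 among N mice and 3.73 ± 0.442 among EY mice. Bex1 was listed at 0 in every E and Y mouse and in 4 of 5 N mice and stood at 0.888 to 19.2 TPM with a median of 4.61 among EY mice. Olfr998 was listed at 0 in every E, Y and EY mouse and Gm16897 stayed under 2 TPM in all mice, so their fitted values rest on the pseudocount. Chaperonin subunits, a list chosen after values were seen, had interactions of 0.12 to 0.77 over 8 genes, all above 0, 6 of them at an unadjusted p under 0.05 beside 7.47% of all genes, and 6 of 8 intervals within -1 and 1.

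Of 8 stress and simple-epithelium keratins 5 lay above 0 and 3 below. At an unadjusted p under 0.05 were 3 above, beside 7.47% of all genes, and 0 below. Krt19 had changes of -1.0 in E, 4.25 in Y and 5.04 in EY, with an interaction of 1.79. Krt6b (-1.08) and Krt16 (-1.06) had interactions below 0. Krt8 and Krt18 spread widely. Krt8 was at 1.76, 7.0, 3.53, 1.14 and 0.57 TPM among N mice, 0.493, 0.666, 0.169, 1.12 and 0.725 among E mice, 0.556, 0.163 and 6.12 among Y mice and 1.6 to 87.2 TPM with a median of 31.7 among EY mice, and Krt18, its partner, at 2.37, 9.75, 8.15, 2.3 and 2.31 TPM among N mice, 3.7, 3.54, 0.171, 4.69 and 3.26 among E mice, 4.5, 5.94 and 31.2 among Y mice and 28 to 373 TPM with a median of 131 among EY mice. Their interactions of 5.74 (SE 1.60, adjusted p = 0.104) and 4.46 (SE 1.29, adjusted p = 0.122) were among the largest in size and were not called. All 13 mitochondrially encoded genes lay above 0, 11 at an unadjusted p under 0.05 against 7.47% of all genes and 0 called by limma, with median changes of -0.58 in E, -0.34 in Y and 0.26 in EY and a median interaction of 1.01. Their summed levels in E, Y and EY mice overlapped with those in N mice. Of 86 cytosolic ribosomal protein genes 70 lay above 0, 18 of them at an unadjusted p under 0.05, and 16 below 0, none of them at that p. Their median was 0.23, and 67 intervals lay within -1 and 1, beside 34.0% of all genes.

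Other pathways are given by the count of intervals within -1 and 1, which was 34.0% over all genes. Intervals lay there in 16 of 19 cholesterol synthesis genes (median -0.16), 11 of 17 genes of glycolysis and lactate export (0.30), 8 of 12 Notch pathway genes (0.07) and 3 of 8 EGF family ligands (0.09). At an unadjusted p under 0.05, 2 cholesterol synthesis genes were below 0 and 0 above, 2 glycolysis genes above and 0 below, and 0 genes of the Notch and EGF lists on either side, beside 6.04% of all genes below 0 and 7.47% above. Whether these shares differ from that of all genes was not tested. The 20 interferon-stimulated genes had median changes of 2.45 in E, 1.35 in Y and 2.47 in EY, and 14 rose in EY by limma, beside 12.6% of all genes. Summed levels of E and Y mice overlapped with those of N mice. Their median interaction of -1.15 had a median SE of 1.13, with 1 gene below 0 at an unadjusted p under 0.05. Cytokines and chemokines had a median of 0.10 (-0.03 after median-of-ratios scaling) and a median SE of 1.08 over 26 genes; 12 lay below 0, 3 of them at an unadjusted p under 0.05, and 14 above, 0 of them at that p. Of 14 matrix proteases and plasminogen activators 13 lay above 0, 2 of them at an unadjusted p under 0.05, with a median of 1.02. Of 18 xenobiotic and aldehyde metabolism genes 13 lay below 0, 6 of them at an unadjusted p under 0.05, with a median of -0.54. Among 8 meiosis and germline genes 5 lay above 0, where 12628 of all 22745 genes did, and 3 of the 5 had an unadjusted p under 0.05. None of these lists held a gene called by limma.

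Markers of other cell types had interactions above 0 in most lists. Of all 22745 genes 12628 were above 0, and 7.47% were above 0 at an unadjusted p under 0.05. All 11 oral keratinocyte markers were measured, led by Krt13, and none was at 0 in every mouse; their summed level was 114656 TPM as the N mean, 102683 as that of E, 82427 of Y and 53752 of EY, and their median interaction was -0.27. All 15 skeletal muscle markers had interactions above 0 (median 3.15, 3 at an unadjusted p under 0.05). Their summed level was 97.7, 356, 26.5, 59.7 and 75.5 TPM among N mice, 60.9, 41.9, 58.7, 29.98 and 203 among E mice, 32.4, 255 and 58.6 among Y mice and 78.9 to 1739 with a median of 263 among EY mice, with Acta1 the most abundant. EY3 stood apart at the top. With the muscle level as a covariate 34 genes passed, 30 of them among the 40. All 13 Lce1 genes passed; Kifc1, Cdc20, Nudt19, Xkrx, Otub2, Gm11992, Cpa4, Fetub, Ly6g6c and Prss8 did not. The 10 fibroblast markers, led by Dcn, were all above 0 as well (median 2.42); their sums were 304, 209.9, 88.9, 75.6 and 63.5 TPM among N mice, 96.7, 86.1, 69, 58.5 and 109 among E mice, 26, 46.3 and 36.3 among Y mice and 26.5 to 168 with a median of 77.6 among EY mice. All 3 Y mice were under every N and E mouse, and EY spread over both. The 13 neutrophil markers, led by S100a8, which keratinocytes also express, summed to 86.7, 35.2, 17.6, 12.5 and 13 TPM among N mice, 36.8, 88.3, 52, 6.18 and 45.9 among E mice, 773, 964 and 550.3 among Y mice and 85.2 to 1061 with a median of 649.5 among EY mice. All 3 Y mice and 5 of the 6 EY mice were above every N and E mouse by this sum, which S100a8 and S100a9 carry. Both of these had interactions below 0 (-1.70 and -1.58). Ly6g, a defining neutrophil marker, was at 0 reads in every N, E and Y mouse and at 0 to 14 reads in EY mice. Retnlg had changes of 3.23 in Y, with 0 reads in Y2, and 5.49 in EY. The median change of the list in Y was 1.09. Changes there were 1.25 for Cxcr2, 1.23 for Mmp8, 1.10 for Ngp, 1.09 for Trem1, 1.03 for Ltf, 0.85 for Cd177, -0.08 for Csf3r, -1.10 for Clec4d and -1.44 for Camp. In all, 11 of 13 interactions lay above 0 (median 1.67, 1 at an unadjusted p under 0.05). None of the muscle, fibroblast or neutrophil markers was at 0 in every mouse. Medians of the other lists were 1.29 for endothelial markers, 1.14 for macrophages and Langerhans cells, 0.47 for T cells, 1.29 for B and plasma cells, 2.04 for Schwann cells, 0.93 for salivary gland, 0.47 for taste cells and -0.44 for melanocytes, with 0 called by limma in any. In the same order 1, 2, 1, 0, 2, 0, 0 and 0 were above 0 at an unadjusted p under 0.05, beside 7.47% of all genes. The part of these cells, and of sex, in the results was not tested beyond these fits.

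**Figure D5:**
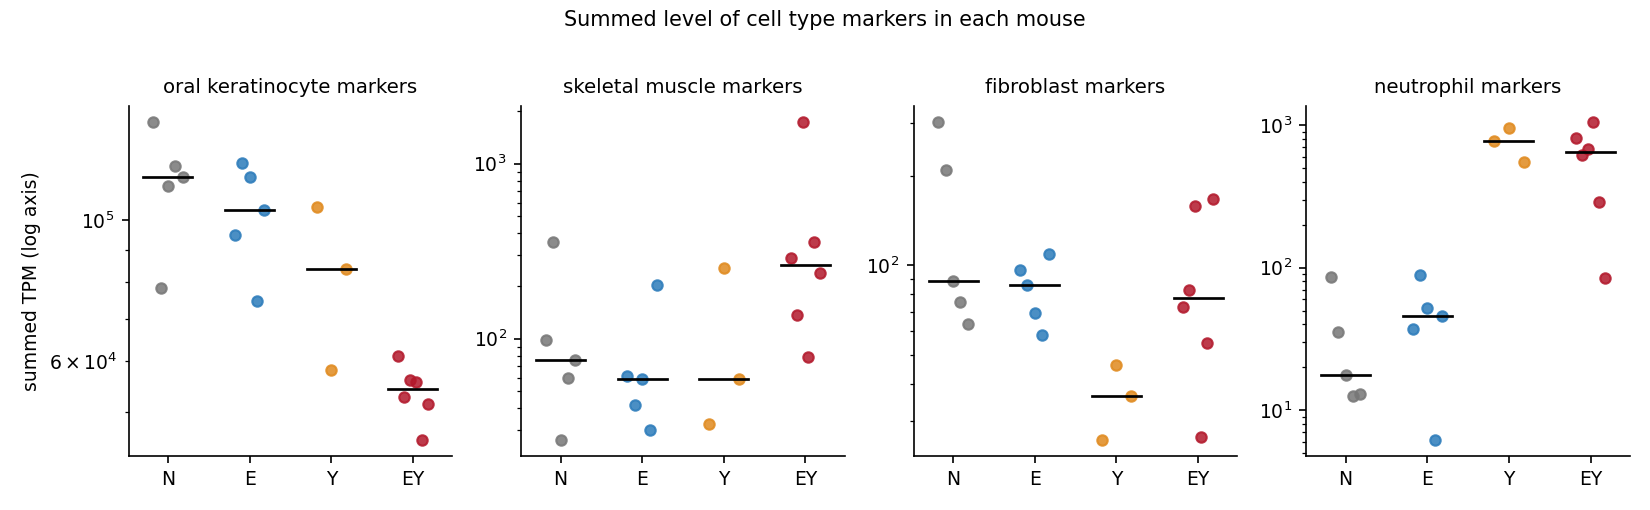
Each point is the summed TPM of a marker list in 1 mouse, on a log axis that differs between panels, with bars at the group medians. Muscle markers reach 1739 TPM in EY3, fibroblast markers are lower in every Y mouse than in any N or E mouse, and the sum of the neutrophil list, carried by S100a8 and S100a9, which keratinocytes also express, is higher in all Y mice and 5 of 6 EY mice than in every N and E mouse.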

How the data were processed

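Bulk RNA of the tongue epithelium of 19 mice was used as gene-level TPM deposited by the authors, whose methods align reads with STAR 2.7.9 to GRCm39, sort them with SAMtools 1.7 and count genes with HTSeq 0.13.5. For gene set analysis the methods also describe TPM from Kallisto on human transcripts; which route made the deposited TPM is not stated. Each gene's TPM values are whole multiples of 1 step, to within 0.01 reads, from which reads were recovered. Values were log2(TPM + 0.1); a gene needed 0.1 TPM in 3 or more mice. R 4.3.3 with limma 3.58.1 (lmFit, eBayes with trend) fitted 1 mean per group and the contrast EY - E - Y + N; calls needed a Benjamini-Hochberg adjusted p under 0.01 over all genes and an absolute value over 1. Named were all called genes, the 15 of smallest p on each side and members of gene lists. The fit was also run on simulated data, from which no result is given here. Groups at 0 were set to 3 reads per mouse where a bound is given, for counting error only. Promoters came from RefSeq (GRCm38.p6) and were searched on both strands. Alternatives were pseudocounts of 0.01 and 1, a filter at 1 TPM and no filter, median-of-ratios and quantile scaling, voom, array weights, robust eBayes, a replicate block, Xist and muscle levels as covariates, 3 N mice, other thresholds and leaving out each mouse. Members and lists were chosen with earlier results of these data known. Summaries were made in pandas 2.3.3 and numpy 2.4.6 under Python 3.11.15, and plots in matplotlib 3.10.9.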

Additional observations from a re-analysis of the deposited data

Results flagged for a closer look

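In 3 of 89 groups of mice looked at, 1 mouse lay far from the others by its gap relative to the group's range, where chance gives about 1 in 20. Lce1i was lowest in EY2, at 7.95 TPM, Gm2a was lowest in EY2, at 22.5 TPM, and Nudt19 was highest of the E mice in E2, at 13.1 TPM. Without EY2, Lce1i and Gm2a were still called, and Nudt19 was still called without E2.

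The effect of 1 transgene differed with the presence of the other, by the limma interaction on the log2 scale, in 40 genes. In the Lce1 family the interactions were Lce1i -4.93, Lce1c -4.60, Lce1b -4.81, Lce1d -4.10, Lce1g -4.61, Lce1f -4.38, Lce1j -4.86, Lce1l -5.07, Lce1h -4.18, Lce1e -4.53, Lce1k -4.71, Lce1a1 -4.60 and Lce1a2 -4.46. Other genes below 0 were Gm38119 -6.76, 2310050C09Rik -3.97, Fam25c -2.55, Mapk13 -1.48, Gpsm1 -2.13, Calcoco1 -1.38, Gm2a -1.75, Sytl1 -1.54, Natd1 -1.86, Kifc1 -1.78, Acer1 -1.90 and Lrrc20 -1.76. Those of larger p were Krt24 -2.72, Tmem229b -2.85, Kprp -2.78, Xkrx -2.46, Otub2 -1.59, Serpina12 -3.01, Gm11992 -1.57, Cpa4 -1.75, Fetub -3.01, Ly6g6c -1.70, Cdc20 -1.29, Ahsg -2.77 and Prss8 -1.38. Above 0 were Nudt19 1.38 and Fkbp11 2.83.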

How the results depend on the processing

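Of 40 called genes 22 were called under every alternative, and among the values of 53 named genes none changed sign. The count of 40 became 82 with array weights, 116 with voom and 148 at an adjusted p under 0.05. Leaving out 1 mouse gave 28 to 73 genes, 27 to 70 below 0, 0 to 5 above 0, and 1065 to 1389 of the EY-called genes with an interval inside a factor of 2. The count below 0 became 73 with array weights, 113 with voom, 25 with 3 N mice and 122 at an adjusted p under 0.05. The count above 0 became 1 with Xist as covariate, 9 with array weights, 5 with 3 N mice, 6 with a pseudocount of 0.01, 4 with quantile normalization, 26 at an adjusted p under 0.05 and 4 with no limit on the effect. The count of genes additive within a factor of 2, 1326, became 849 with voom, 872 with median-of-ratios scaling and 863 with quantile normalization. It became 3886 with no limit on the EY change of the genes counted, which takes in more genes. The causes were not tested.

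With the mouse number as replicate block 27 genes were called, 0 of them above 0. The numbers, which are those of the sample titles, gave little sign of pairing. Over 24 same-number pairs the correlation of residuals ran from -0.043 to 0.076, with a median of 0.012. Over 109 other pairs it ran from -0.195 to 0.077, with a median of -0.008. Litters or batches that the numbers do not follow were not looked at. Without 1 mouse, 145 of the named gene values no longer passed and 4 newly passed; under the other alternatives these were 56 and 17. The Y group of 3 mice is the smallest, and the interaction had a median SE of 0.45 over all genes.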

Other observations

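Of 8 meiosis and germline genes tested 3 rose in EY by limma and 1 fell, beside 12.6% and 5.71% of all genes. Changes in E and EY were 5.32 and 5.86 for Stag3, a cohesin subunit of meiosis that carries most of the list's sum in E and EY mice but not in N or Y mice, 3.24 and 2.64 for Smc1b and 2.58 and 3.17 for Tdrd1, beside -1.42 and -2.44 for Rec8, -0.38 and -3.18 for Tex101 and -0.31 and 0 for Sycp3. The summed level of the 11 genes of the list was 3.44, 19, 6.75, 4.5 and 8.08 TPM among N mice, 15.1, 20.2, 24.8, 21.8 and 32.4 among E mice, 2.1, 1.21 and 1.31 among Y mice and 22.2 to 35.6 with a median of 27.8 among EY mice. Every E and EY mouse was above every Y mouse, 1 N mouse overlapped with E, and every EY mouse was above every N mouse. The median interaction of the 8 genes tested was 1.13, and 0 were called by limma. At an unadjusted p under 0.05, 3 were above 0, beside 7.47% of all genes.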
